A study of Mus musculus with 20 samples.

Results

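miR-192, miR-194 and miR-215 come from a pair of small gene clusters, and the 7 mature miRNAs that these clusters give were followed through small RNA sequencing of mouse liver. They were chosen by name alone: every listed name of miR-192, miR-194 (either locus) or miR-215, on either arm of the hairpin, was taken, which gave 7 of the 1509 names in the deposited tables. These are mmu-miR-192-5p, mmu-miR-192-3p, mmu-miR-194-5p, mmu-miR-194-1-3p, mmu-miR-194-2-3p, mmu-miR-215-5p and mmu-miR-215-3p, and no listed name joined any of them to another miRNA. Livers came from 5 mice labelled PiZ and 5 wild-type (WT) mice, all C57BL/6 and 6 weeks old, with no other treatment named. The PiZ line is a transgenic model of alpha-1 antitrypsin deficiency, in which hepatocytes make the human Z variant, a misfolding form of this secreted protease inhibitor that accumulates inside the cell. The labels give neither the promoter of the transgene, nor the sex of the mice, nor whether WT mice were littermates, and small RNA libraries do not read the transgene. Each library was sequenced in 2 technical runs, summed here, so that the mouse was the replicate.

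miRNAs are short RNAs cut from a hairpin, and the arm loaded into Argonaute guides it to messenger RNAs that pair with its seed, bases 2 to 8. miR-192 and miR-194 are abundant in liver, intestine and kidney epithelium, and miR-192, miR-194 and miR-215 are also described as targets of p53. miR-215 is the seed relative of miR-192 and is better known from the intestine.

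The mature sequences below are from RefSeq on mouse build GRCm38.p6, where all 7 names were matched. They are shown 5′ to 3′ because miR-192-5p and miR-215-5p share a seed but differ elsewhere, so they are counted apart. The 5p arms of both miR-194 genes are identical, so the counts cannot tell them apart. Capitals mark the seed.
miR-192-5p: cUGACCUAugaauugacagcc
miR-215-5p: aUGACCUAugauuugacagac
miR-194-5p: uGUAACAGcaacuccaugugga
miR-194-2-3p: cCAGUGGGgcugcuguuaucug
miR-194-1-3p: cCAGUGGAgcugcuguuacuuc
miR-192-3p: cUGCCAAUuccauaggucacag
miR-215-3p: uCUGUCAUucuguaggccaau

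The seed UGACCUA is held by miR-192-5p and miR-215-5p and by no other mouse miRNA in the RefSeq table. These miRNAs are identical at 18 of 21 positions, with C1A, A12U and C20A written as the base of miR-192-5p, the position from its 5′ end and the base of miR-215-5p. The seed of miR-194-5p, GUAACAG, has no other holder in that table. The 3p arms of the miR-194 genes are identical at 18 of 22 positions and differ at G8A, U19C, C20U and G22C (miR-194-2-3p first), the first of these inside the seed.

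On chromosome 19, plus strand, Mir194-2 (chr19:6264643-6264728) lies just before Mir192 (chr19:6264844-6264932), with miR-194-5p at chr19:6264658-6264679, miR-194-2-3p at chr19:6264694-6264715, miR-192-5p at chr19:6264857-6264877 and miR-192-3p at chr19:6264900-6264921. No other GENCODE gene overlaps these hairpins. On chromosome 1, plus strand, Mir194-1 and Mir215 lie 195 bases apart, with miR-194-5p again at chr1:185313325-185313346, miR-194-1-3p at chr1:185313360-185313381, miR-215-5p at chr1:185313610-185313630 and miR-215-3p at chr1:185313647-185313667. This pair lies inside the noncoding gene 2010103J01Rik, where Mir215 overlaps an exon and Mir194-1 does not, and in an intron of Iars2, the mitochondrial isoleucyl-tRNA synthetase gene, on the opposite strand. Because miR-194-5p is the same RNA from both loci, its reads cannot be divided between the chromosomes.

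Libraries held 1307857 (WT mouse 1) to 10780801 (PiZ mouse 4) reads. The tables came in a longer list of 1399 names (PiZ mice 1 and 2, WT mice 1 to 3) and a shorter list of 990 names (PiZ mice 3 to 5, WT mice 4 and 5), called file sets here. WT mice 1 and 3 stood apart: the most abundant miRNA, miR-22-3p, took 59.7% and 52.2% of their reads against 38.5% to 46.1% in the other 8 mice, and they were the shallowest libraries. Results for the members and for the hepatocyte and p53 lists are therefore given with and without these 2 mice, in places as a difference alone. Cell type markers are given mainly as summed levels. miR-122-5p, the defining hepatocyte miRNA, was at 6807 to 11138 CPM (its count as a share of the TMM-scaled library total) in PiZ mice and 11669 to 14245 CPM in WT mice. It was 1 of 8 of the 336 tested miRNAs (2.38%) with all PiZ mice below all WT mice in CPM. As shares of all reads without TMM the groups overlapped, with PiZ mouse 2 at 1.13% and WT mouse 2 at 1.10%. The endothelial markers miR-126a-5p and miR-126a-3p summed to 23357 to 28800 CPM in PiZ mice and 32304 to 41279 CPM in WT mice 2, 4 and 5, but to 7897 and 12653 CPM in WT mice 1 and 3. The 5 mesenchymal markers summed to 5771 and 8335 CPM in WT mice 1 and 3, against 9875 to 16858 CPM in the others. The 5 biliary markers, which belong to the liver's other epithelium, overlapped (178 to 315 CPM in PiZ, 189 to 280 CPM in WT). The 6 immune markers summed to 1895 to 3035 CPM in PiZ mice and 912 to 2171 CPM in WT mice, and the 4 erythroid markers to 311 to 1751 CPM and 259 to 1079 CPM. The 4 pancreas markers summed to 12.2 to 80.9 CPM in PiZ mice and 5.74 to 17.2 CPM in WT, but did not move together. In the edgeR test described below, miR-216b-5p and miR-217-5p were higher in PiZ. Their log2 differences were 8.02 and 6.15 (edgeR adjusted p = 0.00303 and 0.0297), from WT means of 0.03 CPM. miR-375-3p was at -0.08 (edgeR adjusted p = 0.932). Without WT mice 1 and 3 none of the 4 passed, as was so for every miRNA tested. With all mice no marker of the other cell types passed, beside 9.23% of all miRNAs tested. No marker that the tables list was at 0 in every library. The part of these cell types in the results below was not tested, and in bulk liver fewer cells of a type and less RNA per cell cannot be told apart.

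miR-192 gave far more of its 5p arm than of its 3p arm in these livers, as did miR-194 with both loci summed. The arm balance of each miR-194 gene is unknown, because reads of miR-194-5p cannot be divided between the loci. miR-215 had 501 reads of its 5p arm and 18 of its 3p arm over all libraries, and that ratio was not tested. miR-192-5p was the miRNA of rank 2 or 3 by reads in every library and miR-194-5p ranked 9 to 15, while miR-192-3p ranked 129 to 168, miR-194-2-3p 146 to 228 and miR-215-5p 191 to 366. The last pair overlapped in level and were not separated by their spread. miR-192-5p alone was 92.8% to 94.98% of the reads of the 7 miRNAs in PiZ mice and 92.3% to 92.9% in WT mice 2, 4 and 5, but 84.2% and 85.3% in WT mice 1 and 3. In those 2 mice miR-194-5p made up 15.6% and 14.6% of the group, against 4.98% to 7.68% in the other 8. The remaining 5 names together held at most 0.205% of the group's reads.

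No member passed the test between PiZ and WT liver with all mice (0 of 5 tested; edgeR quasi-likelihood test with the file set as a term, Benjamini-Hochberg adjustment over 336 miRNAs, threshold 0.05). Of all miRNAs tested, 31, or 9.23%, passed, 28 of them higher in PiZ. Of the 5 members, 1 had an unadjusted p under 0.05 in edgeR, as did 24.4% of all miRNAs tested. DESeq2 and limma-voom called 0 members as well, against 50 and 7 of all 336 miRNAs. In DESeq2, miR-192-3p, miR-194-2-3p and miR-194-5p had an unadjusted p under 0.05, as did 96 of the 336 miRNAs. The other 2 members, miR-194-1-3p and miR-215-3p, had too few reads to be tested. The median log2 difference over all tested miRNAs was 0.07.

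miR-192-5p, the dominant arm of its hairpin, was at 139257, 147045, 105071, 139398 and 227480 CPM in PiZ mice 1 to 5. It was at 41468, 211094, 63796, 184434 and 185199 CPM in WT mice 1 to 5. WT mice 1 and 3 were the lowest of all 10, and WT mice 2, 4 and 5 lay above 4 of the 5 PiZ mice. PiZ mouse 5 was the highest, so the groups overlapped in part. The difference was 0.10 on the log2 scale (PiZ minus WT; SE 0.41, 95% interval -0.79 to 1.00, edgeR adjusted p = 0.922). The interval spans decreases and increases alike. The lowest levels stood in the shallowest libraries, those of WT mice 1 and 3, and the part of depth in this was not tested. The mean log2 CPM of miR-192-5p in these 2 mice minus that in WT mice 2, 4 and 5 was -1.91. That ranked 28 from the lowest of 336 tested miRNAs, of which 71 (21.1%) were below -1. The same difference was -2.60 for miR-215-5p, -0.73 for miR-194-5p, 0.11 for miR-192-3p and 1.00 for miR-194-2-3p. For miR-192-5p the runs of a library differed by at most 0.952%. Its share's 95% Wilson interval was at most 0.0547 percentage points to either side, which covers counting error only.

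miR-194-5p, the arm that both clusters make, was at 10816, 7708, 8151, 8700 and 12284 CPM in PiZ mice 1 to 5. In WT mice 1 to 5 it was at 7677, 16003, 10893, 15352 and 14226 CPM. WT mice 2, 4 and 5 were above every PiZ mouse, WT mouse 1 was just below them all, and WT mouse 3 lay among them. The means were 9532 ± 1946 CPM for PiZ mice and 12830 ± 3489 CPM for WT mice (SD, n = 5 each), a log2 difference of -0.46 (SE 0.23, 95% interval -0.98 to 0.05, edgeR adjusted p = 0.233), or 0.726-fold.

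**Figure D1:**
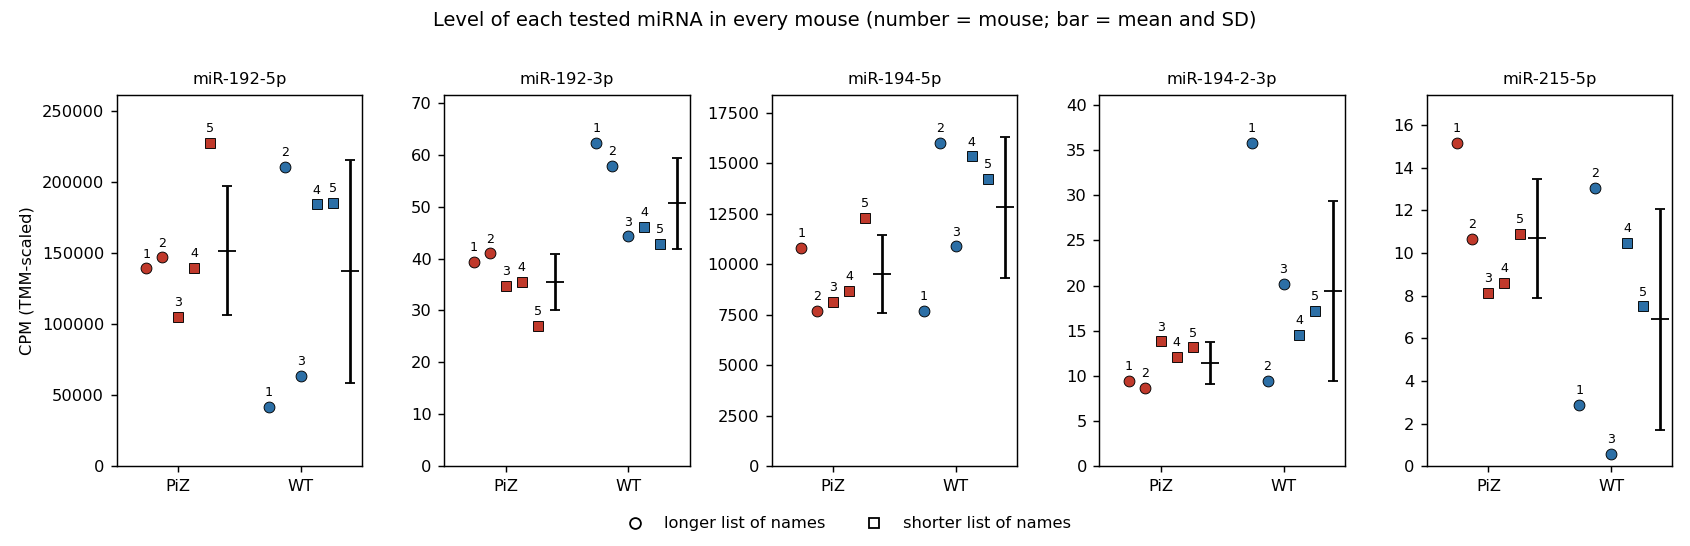
Level (y axis, TMM-scaled CPM, from 0) of the 5 tested miRNAs in PiZ (red) and WT (blue) mice; each point is a mouse with its number, circles and squares are the file sets, and bars are mean and SD of 5 mice. WT mice 1 and 3 are the lowest points for miR-192-5p and miR-215-5p, and for miR-192-3p all PiZ points lie at or below 40.98 CPM and all WT points at or above 42.87 CPM.

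miR-192-3p, the minor arm of miR-192, was the only tested member whose groups did not overlap in CPM. It was at 39.3, 41.0, 34.7, 35.5 and 27.0 CPM in PiZ mice 1 to 5. In WT mice 1 to 5 it was at 62.2, 57.9, 44.2, 46.1 and 42.9 CPM. All PiZ mice lay below all WT mice, which was so for 8 of the 336 tested miRNAs (2.38%). The nearest values were PiZ mouse 2 (104 reads, exact Poisson 95% interval 33.5 to 49.7 CPM) and WT mouse 5 (395 reads, 38.7 to 47.3 CPM), so the gap between the groups was within counting error. As shares of all reads without TMM the groups overlapped, with PiZ mouse 2 at 0.00415% and WT mouse 5 at 0.00394%. The log2 difference was -0.45 (SE 0.20, 95% interval -0.88 to -0.02), with an unadjusted p of 0.0423 and an edgeR adjusted p of 0.186, and it did not pass.

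The locus-specific arms of miR-194 carried few reads. miR-194-2-3p, which marks the chromosome 19 copy, was at 9.41, 8.67, 13.8, 12.1 and 13.2 CPM in PiZ mice 1 to 5 and at 35.8, 9.39, 20.2, 14.5 and 17.1 CPM in WT mice 1 to 5. WT mouse 1 was far above the rest and WT mouse 2 lay within the PiZ values. The log2 difference of -0.74 (SE 0.36, 95% interval -1.53 to 0.06, edgeR adjusted p = 0.22) became -0.26 without WT mice 1 and 3. miR-194-1-3p, from the chromosome 1 copy, had 9 reads in all PiZ libraries and 2 in all WT libraries, a depth-adjusted ratio of 2.84 with a 95% exact counting interval of 0.588 to 27.0. Reads of miR-194-2-3p outnumbered those of miR-194-1-3p in every mouse, 787 against 11 in all. The ratio of these arms was not tested because the latter had a mean of 1.1 reads per library.

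miR-215-5p, the seed relative of miR-192-5p, was at 15.1, 10.6, 8.11, 8.61 and 10.9 CPM in PiZ mice 1 to 5 and at 2.86, 13.04, 0.56, 10.5 and 7.49 CPM in WT mice 1 to 5. WT mice 1 and 3 were again the lowest, on 4 reads and 1 read, with exact Poisson 95% intervals of 0.779 to 7.32 and 0.0142 to 3.12 CPM. The log2 difference of 0.56 (SE 0.53, 95% interval -0.60 to 1.72, edgeR adjusted p = 0.571) became -0.03 without them. miR-215-3p had 12 reads in PiZ and 6 in WT libraries, a ratio of 1.26 (95% exact counting interval 0.439 to 4.10). Fractional counts, a remainder of 0.5 read, occurred among the 7 miRNAs only in miR-192-5p and miR-215-5p, in the same 4 of 20 runs (PiZ mouse 3 and WT mouse 5). The rule by which the authors shared such reads is not stated in these sources, and its effect on the level of miR-215-5p was not tested.

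Without WT mice 1 and 3 the differences were lower for both main arms. miR-192-5p then differed by -0.41 on the log2 scale (edgeR adjusted p = 0.256), miR-194-5p by -0.72 (edgeR adjusted p = 0.0623) and miR-192-3p by -0.52 (edgeR adjusted p = 0.131). None of 410 miRNAs passed in that fit (0%), although 104 had an unadjusted p under 0.05. When PiZ mouse 5 was left out as well, miR-192-5p was lower in PiZ by a log2 difference of -0.60 (SE 0.10, 95% interval -0.85 to -0.36, edgeR adjusted p = 0.00754). miR-194-5p was then lower by -0.82 (SE 0.13, 95% interval -1.13 to -0.51, edgeR adjusted p = 0.00663). These were 2 of 5 members tested, in a fit in which 100 of 390 miRNAs (25.6%) passed. The mice were left out with their values known, so these last calls describe the other 7 mice and are not a test of the genotype. Over the 25 alternatives run, the adjusted p ranged from 0.00754 to 0.981 for miR-192-5p, from 0.00663 to 0.696 for miR-194-5p and from 0.0624 to 0.569 for miR-192-3p.

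**Figure D2:**
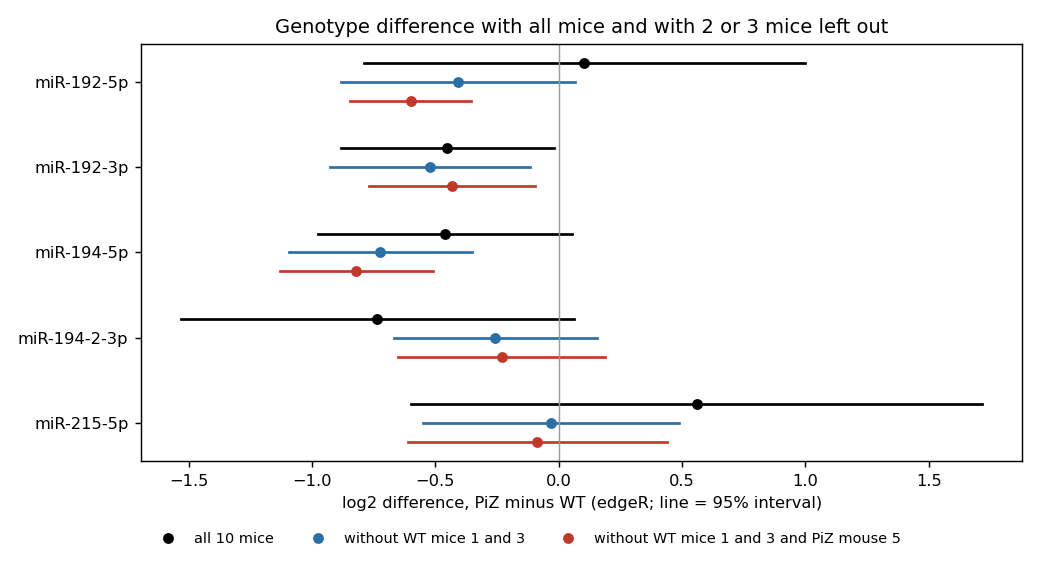
Genotype difference (x axis, log2, PiZ minus WT, edgeR) of the 5 tested miRNAs with all 10 mice (black), without WT mice 1 and 3 (blue) and also without PiZ mouse 5 (red); lines are 95% intervals. miR-194-5p and miR-192-3p lie below 0 in all 3 fits, whereas miR-192-5p moves from 0.10 to -0.41 and -0.60.

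No member passed a test between the file sets either. That test, which asked whether the genotype difference itself differed between them, called 0 of 372 miRNAs (0%; edgeR, 16 with an unadjusted p under 0.05; DESeq2 called 0, with 15 under 0.05). For miR-192-5p this difference of differences was -0.72 (shorter minus longer list; SE 0.84, edgeR adjusted p = 0.873) and for miR-194-5p -0.35 (SE 0.48, edgeR adjusted p = 0.905). When WT mice 1 and 3 were left out, a fit added after seeing the data that leaves 1 WT mouse in the longer file set, 0 of 448 miRNAs were called (0%; edgeR, 16 with an unadjusted p under 0.05). miR-192-5p was then at 0.30 (SE 0.46) and miR-194-5p at 0.16 (SE 0.37). Leaving out WT mouse 2, which keeps only WT mice 1 and 3 as WT in the longer file set, gave 15 calls of 407 miRNAs. miR-192-5p was then at -1.78 (edgeR adjusted p = 0.0765, the lowest of 13 alternatives for this miRNA). miR-215-5p was at -3.07 (edgeR adjusted p = 0.0716) and miR-194-2-3p, in the other direction, at 1.22 (edgeR adjusted p = 0.211).

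The 7 miRNAs together made up 15.1%, 15.7%, 12.3%, 15.5% and 20.5% of all reads in PiZ mice 1 to 5. In WT mice 1 to 5 they made up 5.27%, 21.3%, 8.76%, 18.7% and 18.4%. WT mice 1 and 3 were the lowest and WT mouse 2 the highest, and the PiZ mice lay between them. The mean was 15.8% ± 2.97 in PiZ and 14.5% ± 7.03 in WT (SD, n = 5 each), which differed by 1.32 percentage points (p = 0.698, two-sided exact permutation test over mice). Within the file sets the difference was 3.59 points for the longer list and -2.45 points for the shorter (exact permutation p = 0.6 in each, where the smallest possible is 0.1). With WT mice 1 and 3 left out it was -3.67 points (exact permutation p = 0.107), with 4 of 5 PiZ mice below the 3 remaining WT mice.

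Ratios of reads within a library do not depend on scaling between libraries, and 5 of 7 planned ratios had enough reads to test, with 0.5 added to each count. Between different miRNAs they are ratios of reads, since how well each RNA enters a library was not measured. miR-192-5p had 12.9, 19.1, 12.9, 16.0 and 18.5 reads per read of its cluster partner miR-194-5p in PiZ mice 1 to 5. In WT mice 1 to 5 it had 5.40, 13.2, 5.86, 12.0 and 13.02. PiZ mice 2, 4 and 5 were above all WT mice, PiZ mice 1 and 3 were just below WT mice 2 and 5, and WT mice 1 and 3 were far below. The mean log2 ratio was 3.97 in PiZ and 3.20 in WT, a difference of 0.77 (exact two-sided permutation test, p = 0.0476; adjusted p = 0.238 over 5 ratios), so it did not pass. It was 0.30 without WT mice 1 and 3 (exact permutation p = 0.196), 1.07 in the longer and 0.32 in the shorter file set (exact permutation p = 0.3 in each).

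miR-192-5p had 3526, 3571, 3020, 3922 and 8398 reads per read of miR-192-3p in PiZ mice 1 to 5, and 663, 3629, 1433, 3997 and 4315 in WT mice 1 to 5. PiZ mouse 5 was more than 2-fold above the other PiZ mice, and WT mice 1 and 3 were below all others. The log2 difference of 0.88 (exact permutation p = 0.270, adjusted p = 0.337 over 5 ratios) became 0.07 without WT mice 1 and 3. Over 64 hairpins with enough reads on both arms the median of this difference was 0.22, with a range of -1.03 to 1.61. miR-192 ranked 5 from the top.

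For miR-194 the 5p arm had 567 to 1125 reads per 3p read, both loci summed, in PiZ mice and 213, 1658, 533, 1050 and 817 in WT mice 1 to 5. The groups overlapped fully, with a log2 difference of 0.22 (exact permutation p = 0.722, adjusted p = 0.722 over 5 ratios). Without WT mice 1 and 3 it was -0.48. WT mouse 1 had the lowest ratio for both hairpins. The ratio of arms of miR-215 was not tested, because its 3p arm had a mean of 1.8 reads per library.

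Against its seed relative miR-215-5p, miR-192-5p had 9074 to 20790 reads per read in PiZ mice and 12888, 15867, 75940, 17512 and 24553 in WT mice 1 to 5. WT mouse 3, with 1 read of miR-215-5p, set the upper end, and the log2 difference was -0.73 (exact permutation p = 0.167, adjusted p = 0.278 over 5 ratios). It was -0.30 without WT mouse 3, -0.44 without WT mice 1 and 3, and -0.17 with a pseudocount of 5. Run 1 alone gave -0.73 with an exact permutation p of 0.0159 (adjusted p = 0.0794 over 5 ratios), and over the 16 alternatives the adjusted p ranged from 0.0794 to 0.714. Against miR-122-5p, another hepatocyte miRNA, miR-192-5p had 20.5, 13.2, 11.8, 13.7 and 21.5 reads per read in PiZ mice 1 to 5 and 3.05, 18.1, 5.34, 12.9 and 13.6 in WT mice 1 to 5. The values overlapped, apart from WT mice 1 and 3 at the bottom, and the log2 difference of 0.84 (exact permutation p = 0.135, adjusted p = 0.278 over 5 ratios) became 0.09 without them.

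**Figure D3:**
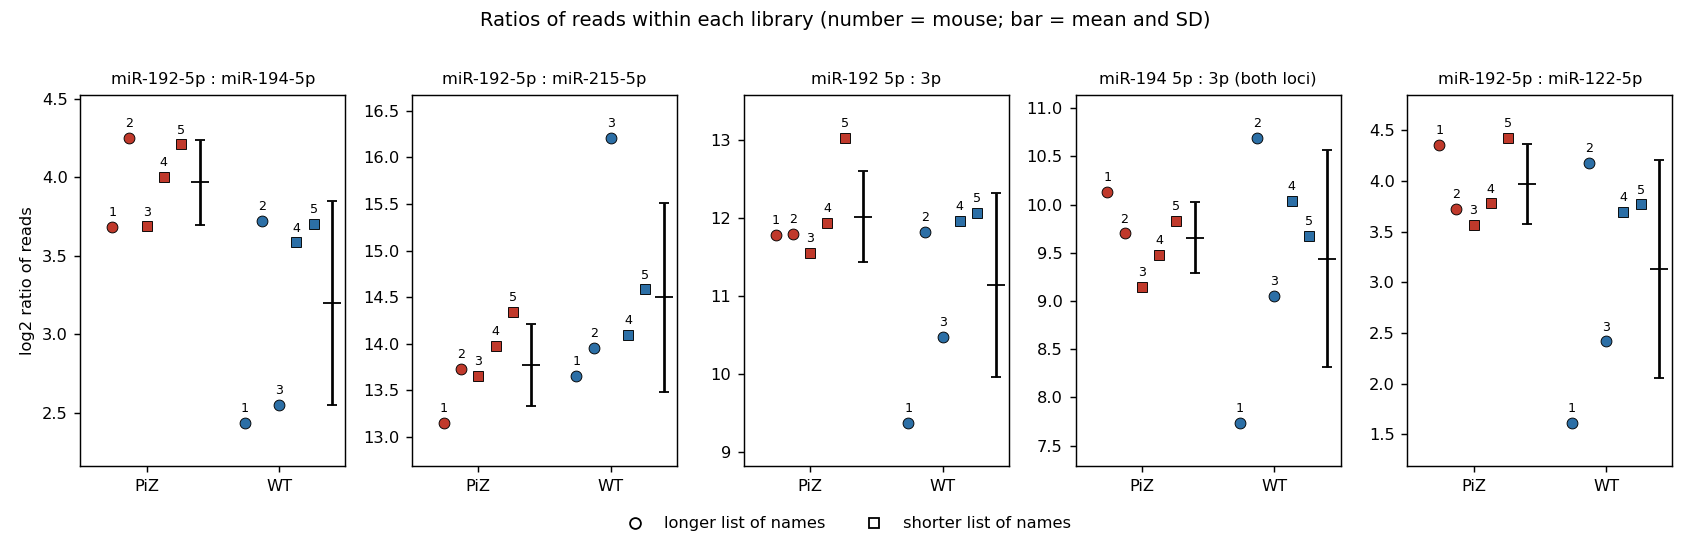
Log2 ratios of reads within each library (y axis) in PiZ (red) and WT (blue) mice, 1 panel per ratio; each point is a mouse with its number, circles and squares are the file sets, and bars are mean and SD of 5 mice. WT mice 1 and 3 are the lowest points for miR-192-5p against miR-194-5p, for the arms of miR-192 and of miR-194 and for miR-192-5p against miR-122-5p; against miR-215-5p, WT mouse 3 is the highest.

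Across the 10 mice, log2 CPM of miR-192-5p and miR-194-5p gave Pearson's r = 0.62 (permutation p = 0.0492, adjusted p = 0.0739 over 3 pairs) and Spearman's rho = 0.709 (permutation p = 0.0273, adjusted p = 0.0820). Without WT mice 1 and 3, the farthest from the median of miR-192-5p, r was 0.79 (exact permutation p = 0.0263, adjusted p = 0.0790). Spearman's rho was then lower, at 0.667 (exact permutation p = 0.0831, adjusted p = 0.249). With library totals in place of TMM r was 0.42 over all 10 mice. miR-192-5p and miR-215-5p gave r = 0.77 (permutation p = 0.0340, adjusted p = 0.0739) and rho = 0.576 (permutation p = 0.0870, adjusted p = 0.131), but r fell to 0.25 without the same 2 mice, so that relation rests on them. miR-194-5p and miR-215-5p gave r = 0.23 (permutation p = 0.558, adjusted p = 0.558) and rho = 0.309 (permutation p = 0.387, adjusted p = 0.387), and r was 0.02 without WT mice 2 and 4, the farthest from the median of miR-194-5p. None of the 3 pairs passed after adjustment. A file set holds 5 mice, too few for a correlation of its own.

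**Figure D4:**
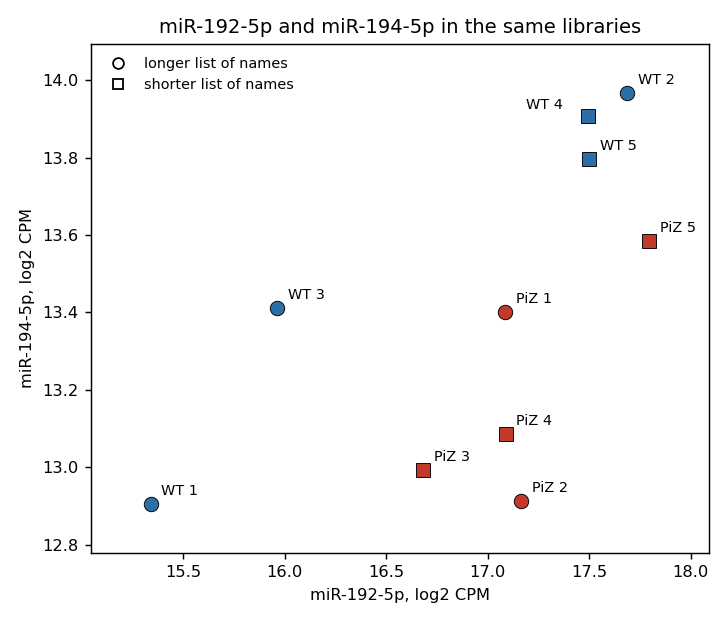
Level of miR-194-5p (y axis, log2 CPM) against miR-192-5p (x axis, log2 CPM), each point a mouse, PiZ red and WT blue, circles and squares for the file sets. WT mice 2, 4 and 5 form the upper right corner with PiZ mouse 5, and WT mice 1 and 3 lie apart on the left.

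Among the other tested miRNAs, those whose log2 CPM followed miR-192-5p most closely over the 10 mice were miR-3068-3p (r = 0.973), miR-21a-5p (0.9703) and miR-30d-3p (0.963). Those closest to miR-194-5p were miR-455-5p (0.926), miR-26b-5p (0.911) and miR-1948-5p (0.903). Without WT mice 1 and 3 the values were 0.932, 0.823 and 0.847 for the first group and 0.932, 0.905 and 0.919 for the second. These are descriptions over libraries that share the same scaling, with no test.

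Other miRNAs that are known from hepatocytes, or as targets of p53, were counted beside the members. Of 6 hepatocyte-enriched names none passed in edgeR, against 9.23% of all miRNAs tested, and 3 reached 0.05 before adjustment, against 24.4%. Of the 6, 5 had positive differences and their median was 0.73, against 0.07 over all. Their summed level, most of it miR-148a-3p, was 91942 to 166513 CPM in PiZ mice. It was 38451 and 64831 CPM in WT mice 1 and 3 and 73952 to 90094 CPM in the other WT mice. Without WT mice 1 and 3 the median difference of the 6 was 0.36, with 4 positive. None of the 6 was called, nor was any of the 410 miRNAs in that fit. miR-148a-3p, the most abundant of them, averaged 106040 ± 31239 CPM over PiZ mice and 55806 ± 19402 CPM over WT mice (SD, n = 5 each; log2 difference 0.92, edgeR adjusted p = 0.0947), and miR-122-5p differed by -0.48 (edgeR adjusted p = 0.119). With WT mice 1 and 3 left out they differed by 0.59 and -0.50 (edgeR adjusted p = 0.161 and 0.121). Of 14 names described as p53-responsive, 13 were tested and 4 rose, namely both arms of miR-34b and of miR-34c, with none lower, beside 9.23% called of all miRNAs. Arms of one hairpin are not independent, and no other name of the list was called. The list was chosen with earlier results of these data known, so its count is a description and not a test of p53 targets. Before adjustment 6 of the 13 reached 0.05. Without WT mice 1 and 3 none of the 13 passed and 6 reached 0.05 before adjustment. In that fit none of all 410 miRNAs passed and 104 reached 0.05 before adjustment. Both arms of miR-34b and miR-34c were then at log2 differences of 6.18 to 7.45, with edgeR adjusted p of 0.0623 to 0.100. The median of that list was 0.18 with all mice and 0.37 without these 2, and 4 of its names also stand among the biliary or mesenchymal markers. Its most abundant miRNAs were miR-16-5p, which differed by -0.31 (edgeR adjusted p = 0.515), and miR-143-3p, by 0.27 (edgeR adjusted p = 0.605). Without the same mice they differed by -0.49 and -0.11, and neither passed.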

How the data were processed

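Frozen livers were extracted with the miRNeasy kit and libraries made with the TruSeq small RNA kit, per the labels' protocols. The authors deposited estimated counts (not all whole) of each mature miRNA, in 20 runs of 10 libraries. The submitters' processing notes name CASAVA. No source used here names the aligner, the genome build or the treatment of reads that match several miRNAs. Positions and sequences come from RefSeq and GENCODE on GRCm38.p6 and not from the counts.

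Both runs of each library were added up and rounded. The 880 names listed in every file, with at least 99.999% of the reads of each library, were filtered with filterByExpr and scaled by TMM. They were tested with edgeR 4.0.16 (file set and genotype, quasi-likelihood F-test, Benjamini-Hochberg adjustment). Ratios used a pseudocount of 0.5 and needed a mean of 20 reads on both sides. Ratios and shares were compared by exact permutation over mice and correlations with 100000 resamples, or exactly for 8 mice (scipy 1.17.1). One read was worth 0.0887 to 0.715 CPM. Alternatives used DESeq2 1.42.0, limma 3.58.1 (voom), other scalings, filters, runs and file sets, and left out mice. The edgeR fit and the exact permutation test over mice were run on simulated data with known differences. Intervals on counts cover counting error only.

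All members were named, with the 3 miRNAs closest to each main arm and the 2 most abundant of each pathway list. The hepatocyte miR-148a and miR-122 and the p53 miRNAs that rose are named from those lists. Of the pancreas markers, those that passed and miR-375-3p are named. The members and lists were chosen with earlier results of these data known. Replicate numbers in the labels name runs of a library, and mouse numbers pair nothing.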

Additional observations from a re-analysis of the deposited data

Results flagged for a closer look

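The ratio of the 5p to the 3p arm of miR-192 in PiZ mice had 1 value apart from the others. PiZ mouse 5 was the highest, at 8398 reads of miR-192-5p per read of miR-192-3p, against 3020 to 3922 in the other 4 PiZ mice. On the log2 scale its gap to the nearest mouse was 0.745 of the group's range, above Dixon's limit of 0.71 for 5 values. In TMM-scaled CPM the same mouse had the highest miR-192-5p and the lowest miR-192-3p of all 10 libraries. As a share of all reads, miR-192-5p was higher in WT mouse 2 (19.8%) than in PiZ mouse 5 (19.5%). This was 1 of 22 groups of 5 mice examined, where chance gives about 1.1. Without this mouse the genotype difference of the ratio was 0.63 on the log2 scale.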

How the results depend on the processing

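Of 331 alternative values, 301 kept their direction and their side of the threshold and 28 changed sign, 1 of which (miR-192-5p) also crossed the threshold. Another 2, miR-194-5p and the number of members called, changed a call without a change of sign. The number of members called was 0 in every alternative except without WT mice 1 and 3 and PiZ mouse 5, where it was 2 (miR-192-5p at -0.60, miR-194-5p at -0.82). The log2 difference of miR-192-5p also changed sign with upper-quartile scaling (-0.0598), no filter (-0.0317), a mean of 10 or more reads (-0.0611), the shorter file set alone (-0.28) and without WT mice 1 and 3 (-0.41), and ranged from -0.22 to 0.45 with single mice left out. Upper-quartile scaling moved the median of all miRNAs from 0.07 to -0.10, and miR-192-5p with it. That of miR-194-5p stayed negative, from -0.85 to -0.38 with single mice left out. miR-215-5p was at -0.0305 without WT mice 1 and 3 and -0.0867 without PiZ mouse 5 as well. The difference between file sets of miR-192-3p was 0.17 with library totals and -0.21 to 0.21 with single mice left out. In an alternative added after seeing the data, without WT mice 1 and 3, that difference was 0.0628 for miR-192-3p, 0.30 for miR-192-5p, -0.24 for miR-194-2-3p, 0.16 for miR-194-5p and 0.0279 for miR-215-5p, each of the opposite sign. Library totals turned the r of miR-194-5p and miR-215-5p to -0.0443.

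The share of reads changed sign in the shorter file set (-2.45 points), without WT mice 1 and 3 (-3.67) and among single mice left out (-0.99 to 3.03). The arm ratio of miR-194 did so in the shorter file set (-0.37), without WT mice 1 and 3 (-0.48) and among single mice left out (-0.21 to 0.53). The cause of these changes was not tested. Of all miRNAs, 31 passed with all mice, 50 with DESeq2, 7 with limma-voom, 18 with a mean of 10 reads, 83 with no filter, 17 without the file set term, 18 with run 2 alone, 0 in the shorter file set and 5 to 46 with single mice left out. Some of these leave 1 mouse of a genotype in a file set, which is then assumed to vary like the others. Depth limits miR-215 and the 3p arms. No paired analysis was possible because replicate numbers in the labels are runs of one library, which were summed, and mouse numbers name different animals.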
